A study of Homo sapiens with 6 samples.

Results

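The genes described here are 10 regulators of origin firing and replication timing, RIF1, CDC7, DBF4, TICRR, MTBP, RECQL4, CDC45, GINS1, GINS2 and MCM10, out of 19671 protein-coding genes with a known start. They were chosen by name for their role in replication. A peak was assigned to a gene when its midpoint lay in the RefSeq gene body or within 1 kb of it, which gave 153 of the 442008 peaks of the series. The data are ATAC-seq peak lists of RKO, a colon cancer cell line, in which 3 samples received aphidicolin (APH) at 0.2 µM for 16 h and 3 control samples received the solvent DMSO. APH slows the replicative DNA polymerases, and the comparison asks whether this mild replication stress changes chromatin accessibility. ATAC-seq uses a transposase that inserts adapters where DNA is accessible.

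The lists held 65865, 77194 and 64511 peaks in the DMSO samples and 79807, 84510 and 70121 in the APH samples. Each peak has 1 value, its average coverage by extended alignments, and the paper describes no scaling of it to library size. The mean value of all peaks was 78.3, 85.2 and 83.1 in DMSO and 69.4, 73.0 and 71.0 in APH, so the mean value was lower in every APH list, while the numbers of peaks overlapped. At each replicate number the APH list was the longer one, and the paper reports an increase in peak number. From average peak values it also reports a genome-wide effect on accessibility. At promoters and gene bodies it found no significant impact on peak enrichment, which is another measure than the value per peak used here. The depth of the libraries is unknown, and without scaling a difference in depth would pass into the values. Of 10 colon epithelium markers, EPCAM, KRT8 and CDX2 had a start peak in every sample and KRT18 in all but 1, KRT20 in 2 APH samples, and CDH1, VIL1, CDX1, CDH17 and LGALS4 in none. No start peak was found at the leukocyte genes PTPRC and CD3E, at DCN, CDH5 or ALB (PECAM1 had no strand and was not used), while the fibroblast gene COL1A1 had one in every sample. The lamin gene LMNA had a start peak in all 6 samples.

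Origins are licensed in G1 by loading of the MCM helicase, and fire in S phase when kinases convert it into an active helicase. The DBF4-dependent kinase CDC7 and cyclin-dependent kinases drive this step, in which treslin (TICRR), MTBP and RECQL4 help to bring CDC45 and the GINS complex to MCM. MCM10 then activates the assembled helicase, and RIF1 counters the CDC7 kinase with protein phosphatase 1, which holds late origins back.

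All 10 genes had a peak at their start in every sample, and the promoters of 8 of them were found in the RefSeq promoter table (GRCh38.p14). The 250 bases before the start are shown for 4 genes. A start peak covers all or most of these bases in every sample, as it also does at RIF1, which is not shown. Shown are CDC7, with a lower start value in all APH samples, and TICRR, with groups that overlap. The others are GINS2, with a peak found in APH only, and MCM10, with the strongest start. Capitals mark CCAAT (NF-Y) and the E2F letters TTTGGCGC, TTTCGCGC, TTTCCCGC and TTTGCCGC, with the variants TTTGGCGG, TTTCGCGG, TTTCCCGG and TTTGCCGG, on either strand. The variants were added after the sequences had been seen. CDC7 lies at chr1:91500601-91500850 on the plus strand, TICRR at chr15:89575219-89575468 on the plus strand, GINS2 at chr16:85688955-85689204 on the minus strand and MCM10 at chr10:13161308-13161557 on the plus strand.
CDC7: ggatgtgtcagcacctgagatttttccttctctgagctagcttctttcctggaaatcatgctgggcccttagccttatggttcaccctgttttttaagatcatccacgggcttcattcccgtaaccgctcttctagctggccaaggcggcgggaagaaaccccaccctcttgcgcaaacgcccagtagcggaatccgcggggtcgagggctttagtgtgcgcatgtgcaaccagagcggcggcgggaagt
TICRR: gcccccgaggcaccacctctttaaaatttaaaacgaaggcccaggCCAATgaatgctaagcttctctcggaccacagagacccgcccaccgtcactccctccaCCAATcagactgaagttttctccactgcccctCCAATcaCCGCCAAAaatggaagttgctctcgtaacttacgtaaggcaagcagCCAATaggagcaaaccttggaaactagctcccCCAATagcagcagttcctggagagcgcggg
GINS2: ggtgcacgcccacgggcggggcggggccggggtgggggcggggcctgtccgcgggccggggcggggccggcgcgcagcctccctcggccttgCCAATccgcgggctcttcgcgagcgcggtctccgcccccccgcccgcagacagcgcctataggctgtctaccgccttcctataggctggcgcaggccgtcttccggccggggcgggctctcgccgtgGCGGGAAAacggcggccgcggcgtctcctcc
MCM10: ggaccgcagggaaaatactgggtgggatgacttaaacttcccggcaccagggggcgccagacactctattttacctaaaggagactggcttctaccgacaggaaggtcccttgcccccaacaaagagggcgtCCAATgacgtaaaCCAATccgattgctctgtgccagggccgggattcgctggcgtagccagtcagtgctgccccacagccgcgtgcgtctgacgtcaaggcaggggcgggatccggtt

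CCAAT was present in 6 of the 8 promoters (RIF1, TICRR, CDC45, GINS1, GINS2 and MCM10), against 34.5% of 15840 coding promoters of the same length. TICRR held 5 copies and CDC45 4. The first E2F group was found at GINS2 alone, against 3.72% of all promoters, and its variants at TICRR and CDC45, against 3.33%. The E2F match of TICRR, on the minus strand, starts 2 bases after a CCAAT. The SP1 letters GGGCGG were found in 7 of 8, against 56% of all, TTTGAA (the cell cycle homology region) in 1 of 8 (RIF1), against 10.8%, and the E-box CACGTG in none, against 7.84%. The CDC45 promoter used here belongs to a start 454 bp downstream of the first RefSeq start. CDC7 held none of these letters in this window. A match describes the letters only.

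The start value of a gene is the length-weighted mean value of its peaks with a midpoint within 1 kb of its start. In DMSO the mean start value ranked MCM10 (484), DBF4 (363), TICRR (264), RIF1 (241), RECQL4 (222), CDC45 (209), GINS2 (157), GINS1 (149), CDC7 (113) and MTBP (93.4). In this order the DMSO samples of TICRR overlapped with those of RIF1, those of RIF1 with RECQL4 and those of GINS2 with GINS1, and no other neighbours overlapped. Start peaks of the 10 genes had a median value of 151 over 74 peaks, and body peaks 37.7 over 79 peaks.

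**Figure D1:**
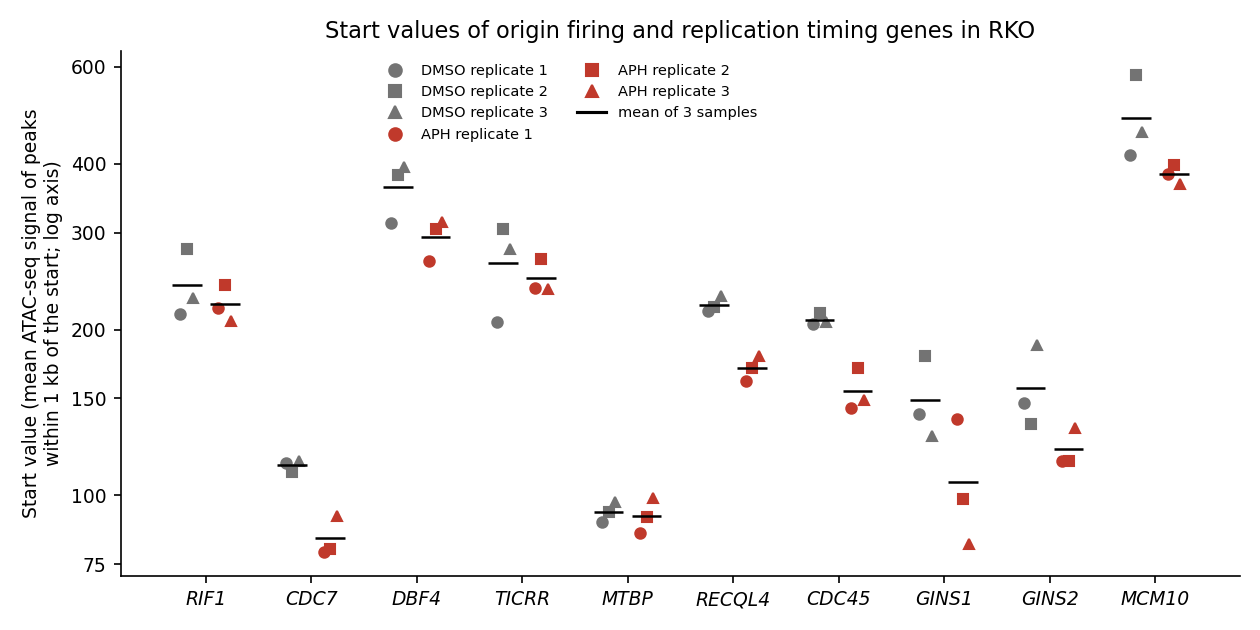
Start value of each gene (log axis) in the 3 DMSO samples (grey) and the 3 APH samples (red), with the mean of each group as a line. The APH points lie below all DMSO points for CDC7, RECQL4, CDC45, GINS2 and MCM10, and the groups overlap for the other 5 genes.

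The start value was lower on average in APH for all 10 genes as the values were deposited, and none passed the test across coding genes. With the replicate number as a block 7 of the 10 passed, among 5752 of the 10811 coding genes tested. The numbers were not taken to pair the samples, as given at the end. All APH samples were below all DMSO samples at 5 of the 10 genes, against 42.2% of the 10811 coding genes tested, and all above at none, against 0.694%. Across coding genes, limma with Benjamini-Hochberg adjustment called 261 starts lower (2.41%) and none higher (0%). At an unadjusted p under 0.05, 4363 were lower and 51 higher. The number of adjusted calls was not stable, with 2058 without APH replicate 3 and 0 or 1 without any other sample. Each such fit also has fewer samples. Over these fits the log2 difference ranged from -0.42 to -0.35 at RECQL4 and from -0.50 to -0.39 at CDC45. At GINS1 it ranged more widely, from -0.71 to -0.34. Without APH replicate 3, CDC7, RECQL4 and CDC45 passed, among 2058 of the 10811 coding genes. The median log2 difference was -0.34 over the 10 genes and -0.27 over all coding genes tested, so a lower start value was the common case. Changes are therefore also given after each sample was corrected for its trend with level, which moved the median of all coding genes to -0.01. No coding gene passed after this correction (0%), with 528 higher and 403 lower at an unadjusted p under 0.05.

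RIF1, the timing regulator, had start values of 214, 279.5 and 229 in DMSO and 219, 241 and 207 in APH. The groups overlapped. The mean was 241 ± 34.5 (SD, n = 3) in DMSO and 222 ± 17.02 in APH, with a log2 difference of -0.11 ± 0.13 (SE, limma adjusted p = 0.496). After correction it was 0.18 ± 0.09, and it was above 0 under every scaling to a common level (adjusted p from 0.63 to 0.796). Of all coding genes tested, 82.9% had a lower log2 difference.

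CDC7, the kinase, had start values of 115, 110.2 and 115 in DMSO and 79.0, 79.8 and 92.0 in APH. All APH samples were below all DMSO samples, and the gap between the groups exceeded the spread within either. The mean fell from 113 ± 2.83 to 83.6 ± 7.26, a log2 difference of -0.44 ± 0.13 that just missed the threshold (limma adjusted p = 0.0538). After correction, -0.18 ± 0.10 remained (adjusted p = 0.66). Its peak, over 1 kb wide, covered chr1:91500563-91501807 over all samples. Here a long noncoding RNA, LOC105378856, starts 3 bp away on the opposite strand, so the start value belongs to both.

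DBF4, the activating subunit of CDC7, had start values of 313, 381 and 395 in DMSO and 267, 305 and 314 in APH. The highest APH sample was just above the lowest DMSO sample. The log2 difference was -0.29 ± 0.13 (limma adjusted p = 0.115), close to the median of all coding genes, and -0.01 ± 0.10 after correction. Kinase and activator thus had values on the same side as deposited, while their difference was not tested.

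TICRR (treslin), which brings CDC45 to MCM with MTBP, had start values of 206, 305 and 280.2 in DMSO and 238, 269 and 237 in APH. The lowest DMSO sample held a second, weaker start peak of 67.1 that lowered its mean, and its stronger peak alone had 266. The log2 difference was -0.07 ± 0.15 (limma adjusted p = 0.697), and -0.19 with the strongest start peak alone. After correction it was 0.21 ± 0.10 (adjusted p = 0.616), and with a start window of 2 kb it was 0.05.

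MTBP, the partner of treslin, had the lowest start values in DMSO, 89.6, 93.4 and 97.2. In APH it had 85.5, 91.3 and 98.9, and CDC7 was lower. The groups lay on each other, with a log2 difference of -0.03 ± 0.13 (limma adjusted p = 0.879) and 0.23 ± 0.10 after correction (adjusted p = 0.574). It had 2 start peaks in every sample. The peak nearer to the start had 100.8, 106 and 106 in DMSO and 89.7, 100.6 and 100.5 in APH, all APH samples lower, but replicates 2 and 3 only by a small gap. The other, 922 bp upstream, had 70.8, 69.4 and 81.5 in DMSO and 77.9, 74.8 and 96.1 in APH, with groups that overlap. The log2 differences were -0.10 ± 0.15 for the nearer peak and 0.16 ± 0.18 for the other, each smaller than its SE. The start value of MTBP is the mean of both peaks, and the difference between them was not tested.

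RECQL4, a helicase of the RecQ family needed for firing, had start values of 216, 220 and 230.5 in DMSO and 162, 170.3 and 179 in APH. All APH samples were below all DMSO samples. The means were 222 ± 7.51 and 170.2 ± 8.67, with a log2 difference of -0.38 ± 0.10 (limma adjusted p = 0.0518) and -0.10 ± 0.09 after correction (adjusted p = 0.778). Its start region was 1 peak in DMSO replicate 1 and 2 peaks in the other 5 samples. RECQL4 and MTBP both lie on the long arm of chromosome 8. Their log2 differences were both below 0 as deposited and had opposite signs after correction. The difference between these genes was not tested.

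CDC45, the first part of the active helicase beside MCM, had start values of 204, 215 and 206 in DMSO and 144, 170.2 and 149 in APH. The groups did not overlap, and the DMSO samples lay close to each other. The log2 difference was -0.43 ± 0.11 (limma adjusted p = 0.0518) and -0.15 ± 0.09 after correction (adjusted p = 0.681). Of all coding genes tested, 12.3% had a lower log2 difference.

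GINS1 and GINS2 are subunits of the GINS complex, the other part of the active helicase. GINS1 had start values of 140.5, 179 and 128 in DMSO and 137, 98.3 and 81.6 in APH. Its log2 difference by this start value, -0.51 ± 0.19 (limma adjusted p = 0.081), was the lowest of the 10 genes, with the widest error. After correction it was -0.24 ± 0.22 (adjusted p = 0.788). In APH replicates 2 and 3 a second start peak of 53.1 and 47.1 was found, 702 bp downstream of the start, and it lowered the mean. The stronger peak alone had 125 and 100.1 in these samples, and a log2 difference of -0.30 (limma adjusted p = 0.188). With the strongest start peak of each gene, CDC7 was lower than GINS1, at -0.44.

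GINS2 had start values of 147, 135 and 188 in DMSO and 116, 115 and 133 in APH. The APH samples were below the DMSO samples by a small gap. The log2 difference was -0.36 ± 0.14 (limma adjusted p = 0.0908) and -0.08 ± 0.12 after correction (adjusted p = 0.883). It was -0.22 without DMSO replicate 3. With a start window of 2 kb it was -0.65 and passed (limma adjusted p = 0.0455), as 1 of 794 starts called. This window takes in a peak found in APH only (45.8, 51.7 and 51.7). It is weaker than the start peak and lowered the mean of the APH samples, while the start peak itself was unchanged by the window. The percentile difference moved from -4.29 to -17.5 points.

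MCM10, which activates the helicase, had the strongest starts, 415, 580.3 and 457 in DMSO and 383, 398 and 368 in APH. The groups did not overlap, and DMSO replicate 2 stood high. The means were 484 ± 86.0 and 383 ± 15.1, with a log2 difference of -0.32 ± 0.15 (limma adjusted p = 0.122) and -0.05 ± 0.07 after correction (adjusted p = 0.867). As deposited it was -0.19 without DMSO replicate 2.

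**Figure D2:**
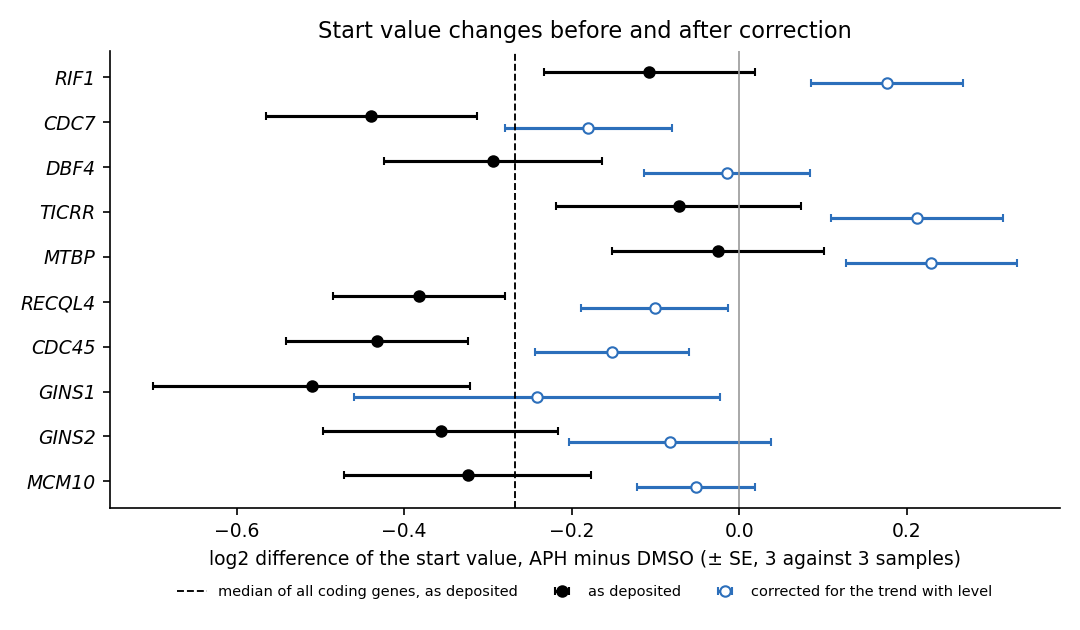
Log2 difference of the start value (x axis, APH minus DMSO, ± SE, 3 against 3 samples) of each gene as deposited (black) and after correction for the trend with level (blue, open). As deposited all 10 lie below 0, around the dashed median of all coding genes at -0.27. After correction RIF1, TICRR and MTBP lie above 0 and the other 7 below.

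**Figure D3:**
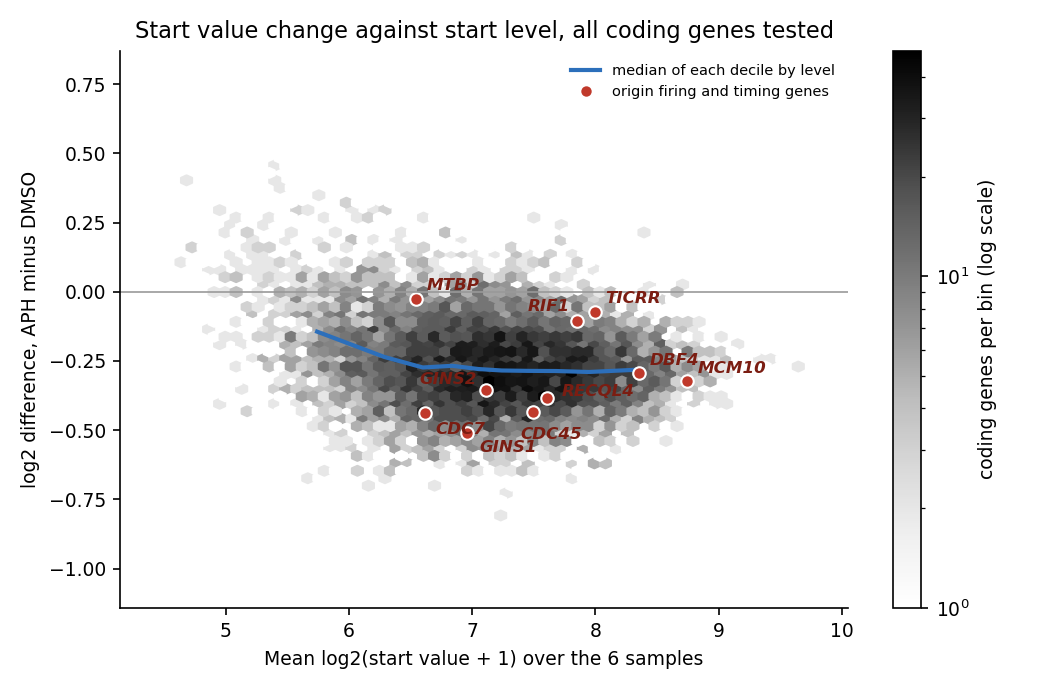
Log2 difference of the start value (y axis) against the mean log2 start value (x axis) of 10811 coding genes, as bins shaded by their number of genes, with the median of each decile by level (blue) and the 10 genes (red). The median lay near -0.14 in the lowest decile and between -0.24 and -0.29 in the others, and the 10 genes lie within the cloud.

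Another coding gene on the opposite strand starts within 1 kb of 4 of the 10 starts, SLC25A40 at DBF4 (133 bp), MRPL13 at MTBP (269 bp), LRRC14 at RECQL4 (159 bp) and UFD1 at CDC45 (273 bp). The same peaks entered the start value of both genes of each pair, so that the values of the neighbours were identical and cannot be told apart from those of the 10 genes.

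The rank of a start within its own sample does not depend on the scale of the sample. It was taken as the percentile among the start values of all coding genes with a start peak, 11254 to 11397 per sample. MTBP stood at 21.0, 24.6 and 21.2% in DMSO and 29.7, 31.6 and 30.3% in APH. TICRR stood at 74.5, 86.4 and 86.5% in DMSO and 89.1, 90.3 and 88.7% in APH. Both were higher in all APH samples, 2 of 10 genes against 8.64% of coding genes. CDC7 stood at 34.2, 32.04 and 29.98% in DMSO and 25.8, 24.9 and 26.4% in APH. CDC45 stood at 73.8, 69.7 and 69.9% in DMSO and 63.3, 69.3 and 60.2% in APH. Both were lower in all APH samples, 2 of 10 against 6.55%. In these 4 genes the two-sided exact permutation test over 3 against 3 samples gave p = 0.1, the smallest it can give, with differences of 8.26, 6.91, -6.41 and -6.87 percentage points. The difference of TICRR was 2.92 without DMSO replicate 1, which held the second start peak, and 2.48 with the strongest start peak of each sample. RIF1 moved from a mean of 78.6 ± 3.83% to 84.8 ± 2.37% with an overlap (exact p = 0.2). MCM10 stayed above 98% and DBF4 above 92% in every sample, and RECQL4, GINS1 and GINS2 overlapped between the groups.

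**Figure D4:**
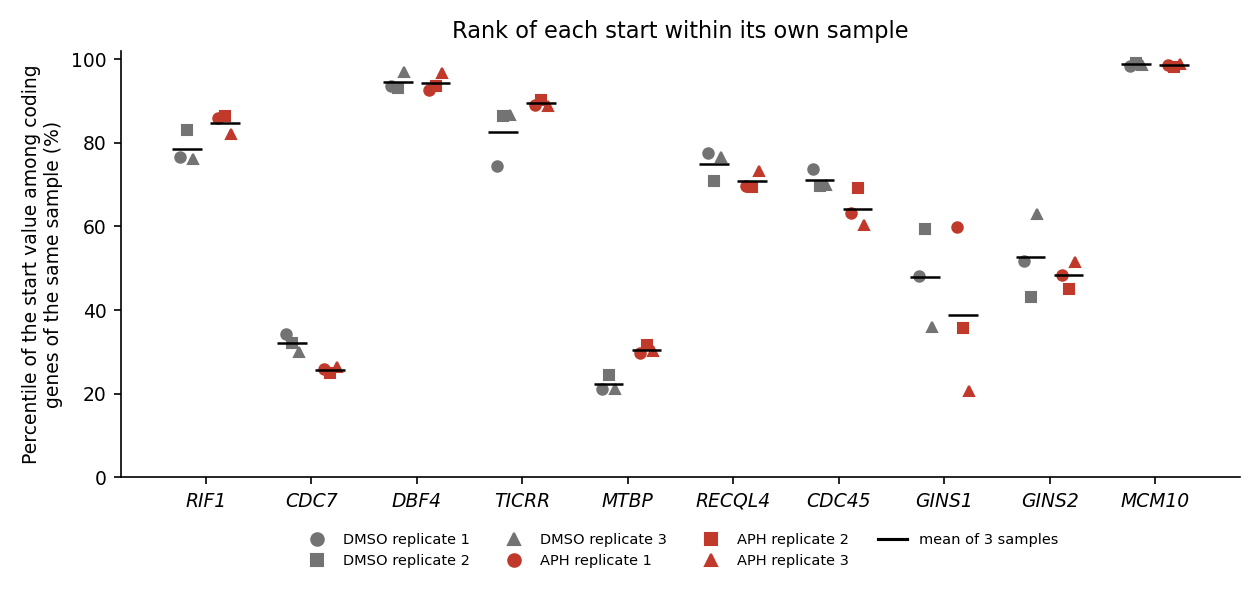
Percentile of each start value among the coding gene starts of the same sample (y axis, %), by gene, for 3 DMSO (grey) and 3 APH samples (red), with group means as lines. TICRR and MTBP are higher and CDC7 and CDC45 lower in all APH samples, and the other 6 genes overlap.

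The 10 genes held 11, 15 and 12 body peaks in DMSO and 13, 14 and 14 in APH, a difference that the exact permutation test did not separate (p = 0.6). Merged over samples, the peaks formed 35 regions, 13 at starts and 22 in bodies or beyond the gene end. A peak in every sample was found in 11 start regions and 8 of the others. Only 1 of the 35 had a peak in all APH and no DMSO sample, against 1.11% of 102784 merged regions, and 9 were found in 1 sample only.

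That region lay at GINS2, at chr16:85687205-85687480, 1.61 kb downstream of the start inside the gene. Its peak had values of 45.8, 51.7 and 51.7 in the APH samples, near the median of all peaks, 49.7, and no peak was called there in any DMSO sample. The absence of a peak says that the signal did not pass the authors' peak threshold, not that it was 0. The coding gene GSE1, on the opposite strand, overlaps GINS2, and whether it reaches this region was not examined. With a second peak just beyond the gene end, found in all 6 samples, GINS2 had 1 body peak in every DMSO sample and 2 in every APH sample. The body peak number was higher in all APH samples at 1 of the 8 genes with a mean of at least 1 body peak, against 3.48% of 10656 such coding genes. The exact permutation test gave p = 0.1, the smallest it can give. The limma fit across coding genes called GINS2 higher (log2 difference 0.58, adjusted p = 2.4e-07), as it did 0.713% of genes, but this p rests on numbers without spread. All 88 genes with 1 number in the DMSO samples and another in the APH samples were called, 73 among the 76 called higher and 15 among the 15 called lower. With an equal number of the strongest peaks in every sample, 56 were called higher, GINS2 among them, and 51 lower, and with peaks above the median value 50 and 32. Without the 1 kb margin, which leaves out the peak beyond the gene end, GINS2 had too few body peaks for the limma fit (difference 1, exact p = 0.1). With a start window of 2 kb this peak counts as a start peak and the difference is 0. With peaks above the median value, the difference of GINS2 was 0.667 (exact p = 0.6).

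RIF1, 124.5 kb long, had 1 body peak in APH replicate 2 (25) and none in the other samples. CDC7 had a peak 2.17 kb downstream of its start in every sample, of 68.9, 109 and 71.8 in DMSO and 84.4, 95.8 and 72.1 in APH, with groups that overlap. In APH replicates 1 and 2 it was stronger than the start peak. CDC7 had 2, 2 and 1 body peaks in DMSO and 1 in each APH sample, as further weak peaks were seen in DMSO replicates 1 and 2 only (18.8 and 28.5). Without DMSO replicate 3 the numbers of CDC7 had no spread either and the limma fit called them lower (adjusted p = 2.8e-06). DBF4 had a weak peak 8.73 kb downstream in all samples but DMSO replicate 1, of 23.4 and 20.2 in DMSO and 29.1, 40.6 and 26.4 in APH. Another, 32.5 kb downstream, was found in DMSO replicates 1 and 2 (24.9 and 23.7) and APH replicate 3 (25.4). Its body value, the mean over body peaks, was 22.9 ± 2.39 in DMSO and 31.9 ± 7.72 in APH (log2 difference 0.44 ± 0.18, limma adjusted p = 0.38).

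Among the loading factors, TICRR had a body peak 12.7 kb downstream of its start in every sample, of 40.8, 44.3 and 38.3 in DMSO and 53.0, 62.7 and 42.0 in APH. The groups overlapped (log2 difference 0.33 ± 0.22). Its peaks between 0.5 and 2.1 kb from the start appeared in some samples only, 1 or 2 in each DMSO sample and 1 in APH replicate 3. MTBP had 0 to 2 weak body peaks per sample, none of them in all samples, and RECQL4, 6.55 kb long, had none.

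Among the helicase parts, CDC45 had the most body peaks, 2, 3 and 3 in DMSO and 3, 4 and 3 in APH. Its peak 9.93 kb downstream was nearly constant, 29.6, 30.0 and 29.2 in DMSO and 29.1, 34.3 and 28.5 in APH. A stronger one 17.9 kb downstream had 47.9, 73.4 and 44.5 in DMSO and 51.1, 48.4 and 34.3 in APH, with groups that overlap (log2 difference -0.29 ± 0.24). GINS1 had 2 body peaks in every sample, 1.42 and 11.3 kb downstream, with log2 differences of 0.05 ± 0.21 and 0.21 ± 0.21. Neither separated the groups.

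MCM10 had 1 body peak, at chr10:13201164-13201481, 39.8 kb downstream of its start. It had values of 30.1, 30.5 and 30.7 in DMSO and 36.8, 41.1 and 42.1 in APH. All APH samples were higher, opposite to the start of the same gene. The log2 difference of its body value was 0.38 ± 0.14 (limma adjusted p = 0.34). The body value was higher in all APH samples at DBF4 and MCM10, 2 of the 7 genes that could be tested, against 2.56% of 10088 coding genes. At DBF4 this compares different peaks, since DMSO replicate 1 had only the peak at 32.5 kb and APH replicates 1 and 2 only that at 8.73 kb. RIF1, MTBP and RECQL4 lacked a body peak in at least 1 sample and could not be tested. No body value of the 10 genes passed, and across coding genes 1 was called, lower (0.00991%), with 153 higher and 1081 lower at an unadjusted p under 0.05. Without DMSO replicate 2 the only call was higher in APH.

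Region by region, 6 of the 11 start regions with a peak in every sample were lower in all APH samples, against 14.4% of 50150 shared regions, and of the 8 other such regions 1 was higher in all APH samples, against 4.21%. No shared region passed limma in either direction (0%), with 1235 higher and 5062 lower at an unadjusted p under 0.05. Of coding gene starts 42.2% were lower in all APH samples, as given above.

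**Figure D5:**
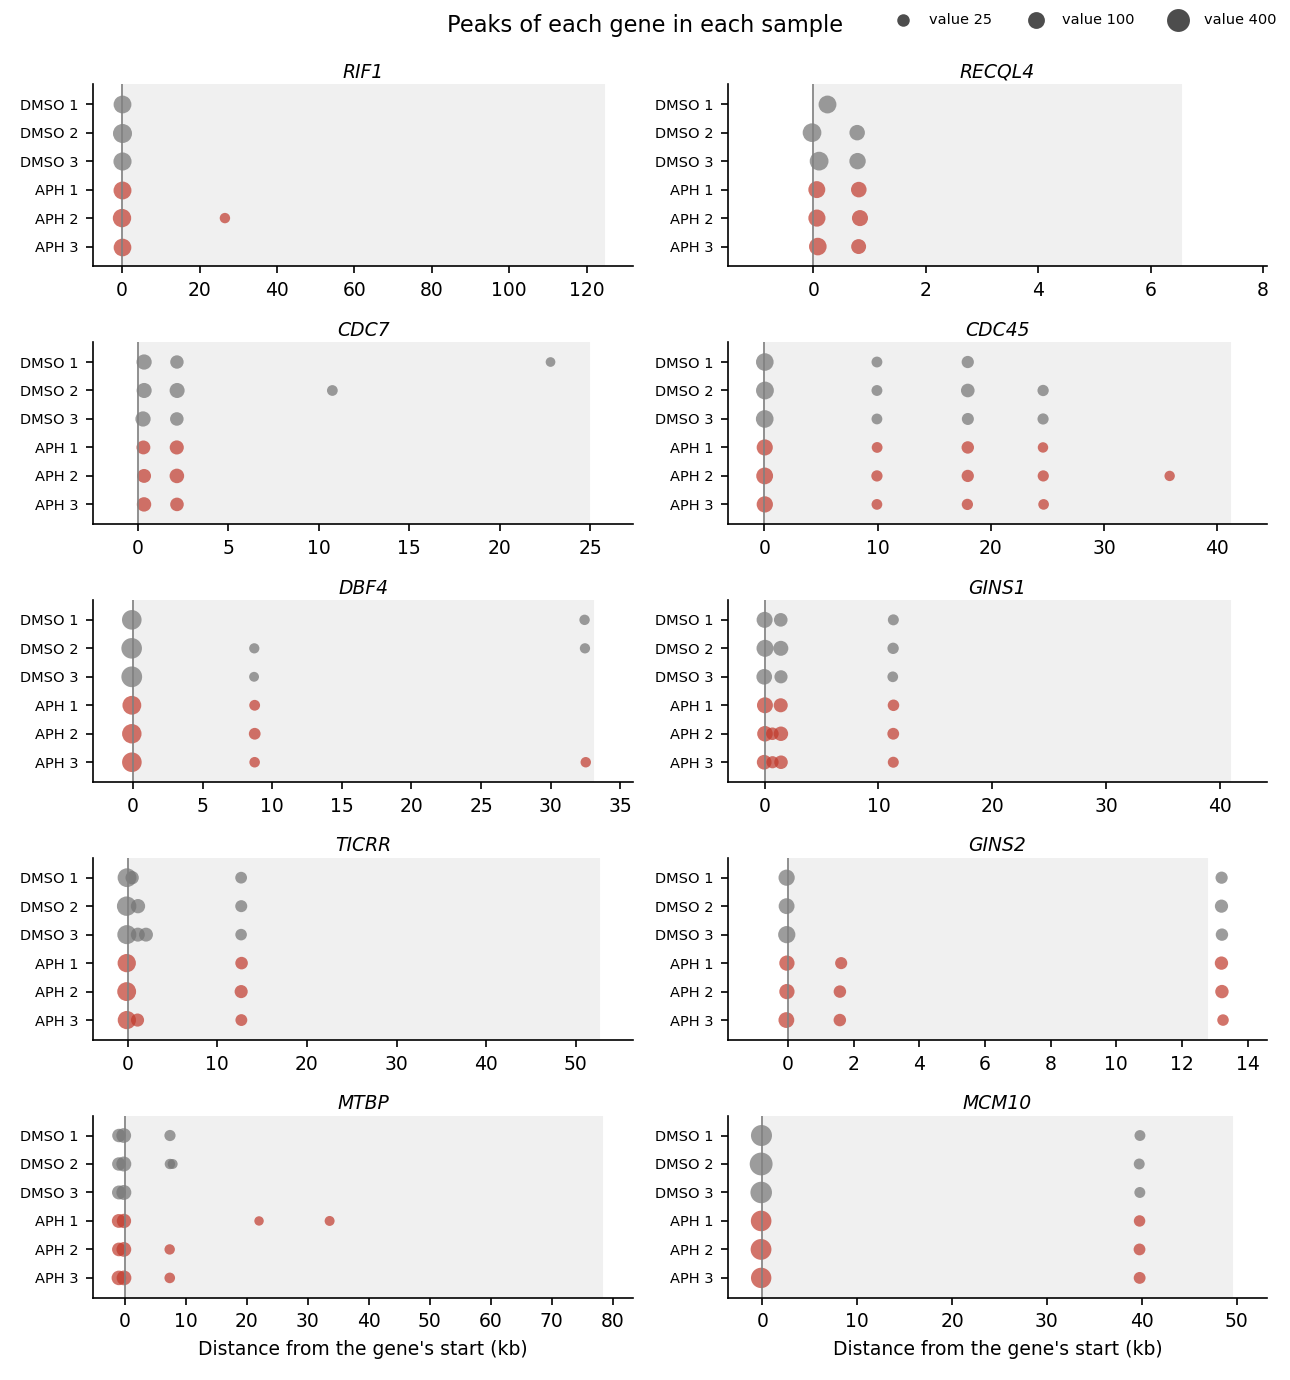
Peaks of each gene by distance from its start (x axis, kb) in each of the 6 samples (rows), with the gene in light grey and dot areas that grow with the square root of the value (DMSO grey, APH red). The strongest peak of a gene lies at its start in every sample, except for CDC7 in APH replicates 1 and 2, and the peak near 1.6 kb in GINS2 is seen in the 3 APH samples only.

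Start values as deposited were lower on average at 10043 of the 10811 coding genes tested, and the other genes of the pathway are given beside this. Of 10 other firing factors and S-phase kinases, 9 could be tested, with a median log2 difference of -0.32, and 1 was called lower, against 2.41% of all coding genes. This was GINS4, a further GINS subunit, with 431 ± 21.9 in DMSO and 285 ± 40.1 in APH (log2 difference -0.60 ± 0.13, limma adjusted p = 0.0486), and -0.32 after correction. CCNE2 had a start peak in 1 sample only, and the highest log2 difference was that of DONSON, 0.06. Of 15 licensing genes 13 could be tested, with a median of -0.25 and 1 called lower, again against 2.41%, the helicase subunit MCM4 (log2 difference -0.48 ± 0.11, adjusted p = 0.0486). No gene passed after correction, GINS4 and MCM4 included. ORC1 had no start peak in any sample, and ORC5 had the highest log2 difference of the licensing genes, 0.11.

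None of the 3 phosphatase 1 catalytic subunits that RIF1 recruits was called (median -0.37), from PPP1CA at -0.40 to PPP1CB at -0.25. Of the 3 fork pace factors none was called (median -0.34), from CLSPN at -0.40 to TIMELESS at -0.26. Of the 12 replicative polymerase and primase genes none was called (median -0.35), from POLD3 at -0.59 to POLD4 at -0.11. The medians of the lists lay between -0.37 and -0.25, around the -0.27 of all coding genes, and after correction between -0.13 and 0.03.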

How the data were processed

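The members and gene lists were chosen with earlier results of these data known. The authors deposited, for each sample, peaks and a signal per peak, which averages the alignments (lengthened to 200 bp) over its 32-nt bins. Reads were aligned with BWA 0.7.12 to hg38 and peaks called per sample with MACS2 2.1.0, per the submitters' processing notes. Gene bounds and starts came from RefSeq (GRCh38.p14), the strand from its promoter table or, by symbol, from GENCODE. The study speaks of independent experiments, and 3 samples per condition were used.

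Start value, body value, body peak number and regions merged over samples were compared as log2(value + 1) with limma 3.58.1 (R 4.3.3, intensity trend, Benjamini-Hochberg at 0.05). Start and body values needed peaks in every sample, and body numbers a mean of at least 1. For single values the exact permutation test (two-sided) was used. The fit was tested on simulated data for the start values of 10811 coding genes. It called 30% of the changes of log2 0.5, 76% of those of 1 and 100% of those of 2 or 3, with 9 false calls. The simulated noise was independent between genes and held no shift common to all genes, unlike the deposited values. These rates need not hold for the deposited values. Named genes are the 10 members, neighbours within 1 kb, and in each list the called genes, otherwise its extremes, and genes with no start peak. Genes named beside these, CCNE2, DONSON and ORC5, were chosen after their values were seen. Some marker genes are not reported here. Python 3.11.15 with pandas 2.3.3 was used.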

Additional observations from a re-analysis of the deposited data

How the results depend on the processing

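The number of coding starts called (261) was 0 after division by the sample mean, centring on the median, quantile normalization or correction for level, with a 500 bp window, the strongest peak or all RefSeq genes. It was 831 with peaks above the median value (0 higher in APH) and 794 with a 2 kb window (8 higher). With a start peak in at least 3 samples it was 9 (6 higher). With the summed value times length, added after seeing the data, it was 2981 of 10811 genes (12 higher). In this order the settings called 2, 3 (RECQL4, CDC45 and GINS2), 0 and 3 of the 10 genes. All but the last tested other sets of genes, whose sizes are not given here. Leaving out a replicate gave 0 to 2058 calls among the 10811 genes (the latter with 20 higher), 0 to 3 of them among the 10 genes. Under the 4 scalings, in the order above, the log2 difference turned positive for RIF1 (0.10, 0.17, 0.17 and 0.18), TICRR (0.13, 0.20, 0.22 and 0.21) and MTBP (0.18, 0.25, 0.23 and 0.23), and for TICRR with the 2 kb window (0.049). Leave-one-out ranges were -0.19 to 0.0050 for RIF1, -0.24 to 0.042 for TICRR and -0.079 to 0.025 for MTBP, with no reversal in the other 7. Leaving out a replicate, percentile differences ranged from -1.41 to 0.98 for DBF4, -9.06 to 0.93 for GINS2 and -19.6 to -0.046 for GINS1 (-9.08 with all samples), the body number difference of MTBP from -0.17 to 0.83, calls of body peak number from 197 to 308, of body value from 0 to 1 and of shared regions from 0 to 3. Body value calls were 0 after division by the mean or quantile normalization, and the 1 call made without DMSO replicate 2 was higher in APH. The scalings remove the common shift by construction, and otherwise the cause was not tested.

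Same-numbered samples did not all deviate together (r = -0.09, 0.59 and 0.60 over coding starts). At numbers 2 and 3 the same-numbered sample was the closest of the other group. DMSO replicate 1 followed APH replicate 3 (r = 0.32) more closely than its own number. The numbers were therefore not taken to pair the samples, but whether the samples are paired is not settled. With the replicate block 5752 of 10811 starts (64 higher) and 6604 of 50150 shared regions were called. Of the 10 genes 7 were called (all but RIF1, TICRR and MTBP). Depth is unknown, and 3 samples per group limit each exact permutation test to p = 0.1.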
